A study of Oryctolagus cuniculus with 9 samples.

Results

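The genes of the insulin-like growth factor (IGF) system followed here are the ligands IGF1 and IGF2, the receptors IGF1R and IGF2R, and the binding proteins IGFBP2, IGFBP3, IGFBP4, IGFBP5, IGFBP6 and IGFBP7. They were chosen by name, as rows of the expression table whose gene symbol equals 1 of these 10. Of the 10, 8 had a row among 19511 loci. IGF2 and IGFBP3 had none under that name and were not analysed here, so the ligands are represented by IGF1 alone. All 8 passed the expression filter, as did 10956 loci in all.

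The cells were primary rabbit (Oryctolagus cuniculus) parathyroid cells, with 3 RNA-seq libraries in each of 3 groups. Control cells carried the label WT, received no treatment and were placed at day 0. The H/R group was put through hypoxia and reoxygenation, labelled 6H-6H, without gallic acid. GA+H/R cells had a 24 h pretreatment with 1200 µM gallic acid, a plant phenolic acid, ahead of the same challenge. The study asks which signalling changes accompany gallic acid pretreatment in this culture model of ischaemia and reperfusion. No gallic acid group without hypoxia was among the samples, and the labels give no matched time in culture for the groups.

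IGF1 and IGF2 are secreted peptides related to insulin. They signal through IGF1R, a tyrosine kinase close to the insulin receptor in sequence, while IGF2R, also known as the cation-independent mannose 6-phosphate receptor, takes up IGF2 for degradation and sorts lysosomal enzymes. Binding proteins hold IGFs in blood and tissue fluid, can lengthen their life or keep them from the receptor, and are cut by proteases that set the ligand free. Many of these genes are transcribed in stromal cells, and macrophages are a known source of IGF1.

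Values are FPKM (fragments scaled to transcript length and to library size). The table holds no read counts, so depth is unknown and precision rests on the spread between libraries. Summed over loci, FPKM came to 1674790 ± 24633 for control, 744230 ± 12247 for H/R and 498124 ± 26668 for GA+H/R (SD, n = 3). The log2 change of the median locus was -1.25 from control to H/R, -0.50 from H/R to GA+H/R and -1.77 from control to GA+H/R. Each library was therefore divided by a factor, between 1.77 and 1.96 in control, 0.670 and 0.672 in H/R and 0.422 and 0.424 in GA+H/R, that sets its median locus to that of the mean library. The quotient is called scaled FPKM. The words rose and fell below mean an adjusted p under 0.05 on this scale (limma, Benjamini-Hochberg over all loci tested), and changes on the deposited scale are named as such. PTH, the hormone that defines parathyroid cells, was between 0.0972 and 0.142 FPKM in control and between 0 and 0.0439 FPKM in the other libraries. CASR and GCM2 were not analysed here. Whether the 3 libraries of a group are separate animals, cultures or extractions is not given in the labels, and the p-values reflect only their spread, which may be technical. In bulk RNA, fewer cells of a type and less RNA per cell cannot be told apart.

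The 3 control libraries were not alike for these genes. On the log2 scale, control 1 differed from the mean of controls 2 and 3 by -1.65 for IGFBP5, -1.52 for IGFBP2 and -0.88 for IGF1, and by 0.69 for IGFBP6 and 0.63 for IGFBP7. For all loci tested the 5% and 95% points of this difference were -0.64 and 0.55. The difference was -0.56 for IGF2R, -0.39 for IGF1R and -0.07 for IGFBP4. Of 11 macrophage markers with a row (14 listed), 10 were lower in control 1 than in both other controls, and so were 9 of 10 fibroblast markers with a row (12 listed). So too were 10 of 18 long and 12 of 17 short housekeeping transcripts with a row. The share of all loci lowest in control 1 was not computed. Of the macrophage markers counted, CD14, C1QC, TYROBP, AIF1 and PTPRC were at most 0.289 FPKM in any control. The changes of these genes in H/R against control are given with and without control 1. Other results that use the controls are given without it only in part.

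After hypoxia and reoxygenation most of the system stood lower relative to the median locus, and 2 binding proteins stood higher. Comparing H/R with control, all 8 genes passed the test, where 57.6% of all loci did. IGF1, IGF1R, IGF2R, IGFBP2, IGFBP4 and IGFBP5 fell (6 of 8, against 28.4% of loci lower), and IGFBP6 and IGFBP7 rose (2 of 8, against 29.2% higher). As deposited, all 8 fell, where 90.2% of loci were called, 86% lower and 4.18% higher. All 8 also passed without control 1, where 6291 of 10592 loci did, and 5 to 8 passed when any 1 library was left out. It was 5 without control 2, H/R 1 or H/R 3, where IGFBP4, IGFBP6 and IGFBP7 missed the threshold. The median change was -1.003 for these genes and 0.0028 for all loci relative to the median locus, and -2.43 and -1.25 on the deposited scale.

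With gallic acid pretreatment the receptors stood lower still, and 2 binding proteins higher. In GA+H/R against H/R, 4 of 8 genes passed the test, where 33.9% of loci did. Both receptors, IGF1R and IGF2R, fell (15.2% of loci were called lower), and IGFBP4 and IGFBP6 rose (18.7% higher), while both of these rises were lost on the deposited scale and IGFBP4 changed sign there. Without control 1, 6 of 8 passed, IGF1 (higher) and IGFBP5 (lower) among them, where 4556 of 10592 loci did. With FPKM as deposited, 3 of 8 fell (IGF1R, IGF2R and IGFBP5) and 0 rose, where 66% of loci were called, 64.3% lower and 1.69% higher. The median change was 0.10 for these genes and 0.0040 for all loci.

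**Figure D1:**
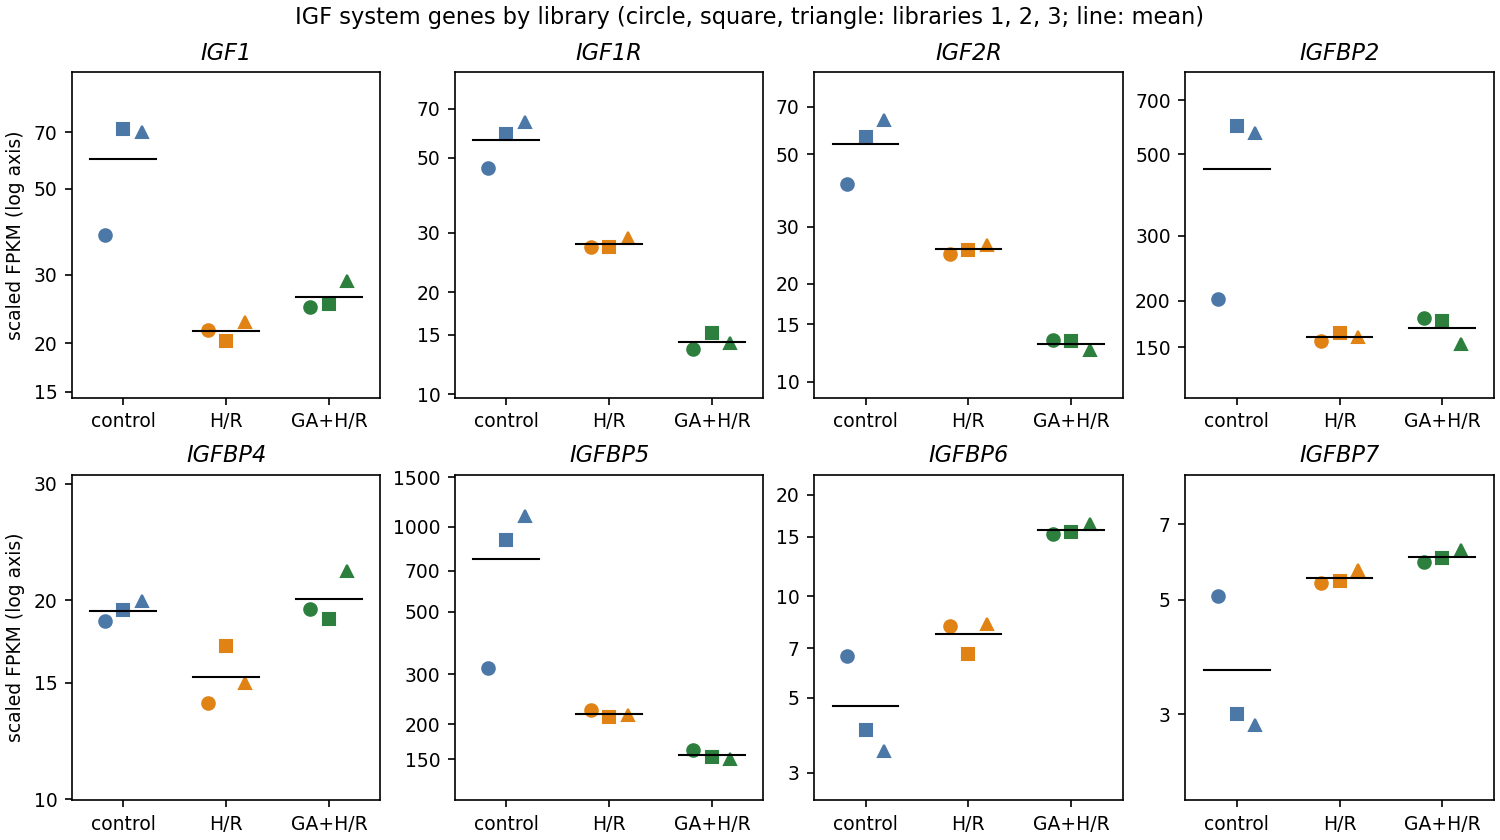
Scaled FPKM (log axis, a separate range in each panel) of the 8 genes in every library, with circles, squares and triangles for libraries 1, 2 and 3 of each group and a line at the group mean. IGF1R and IGF2R step down from control through H/R to GA+H/R, IGFBP6 steps up, and control 1 lies apart from controls 2 and 3 for IGF1, IGFBP2, IGFBP5, IGFBP6 and IGFBP7.

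IGF1 is the ligand that drives IGF1R. Its FPKM as deposited was 74.7, 129 and 123.5 in controls 1, 2 and 3, then 14.5, 13.6 and 15.2 in the H/R libraries, and 10.5, 10.7 and 12.2 in the GA+H/R libraries. Scaled group means were 59.8 ± 18.8 for control, 21.5 ± 1.23 for H/R and 26.3 ± 2.24 for GA+H/R (SD, n = 3). Every H/R and GA+H/R library lay below every control library, and every scaled GA+H/R value lay above every scaled H/R value. IGF1 fell by 1.38 ± 0.21 (log2) in H/R (SE, limma adjusted p = 5.71e-04), and without control 1 the change was -1.65 (adjusted p = 1.63e-06).

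With gallic acid IGF1 moved little relative to the median locus. Its change from H/R was 0.28 ± 0.21 (limma adjusted p = 0.348), with the opposite sign, -0.35, on the deposited scale (adjusted p = 0.126). This fit shares its spread with the controls, and without control 1 the same change was 0.27 with an adjusted p of 0.0280. Against control, IGF1 in GA+H/R was lower, with a log2 change of -1.10 ± 0.21 (adjusted p = 0.00145, and -1.38 without control 1). The summed scaled FPKM of the macrophage markers with a row was 2.49, 36.2 and 43.1 in controls 1, 2 and 3, between 29.2 and 34.1 in H/R and between 343 and 360 in GA+H/R. None of these markers was at 0 in all 9 libraries, and PTPRC (CD45) was at most 0.111 FPKM. All 6 macrophage markers tested rose in GA+H/R against H/R, where 18.7% of loci did. CD14 and FCER1G were among the 6 only through their GA+H/R values, so their test was not independent of the filter. As deposited, neither passed the filter, and 4 markers rose and 0 fell, where 1.69% and 64.3% of loci did. The part of macrophages in the level of IGF1 was not tested.

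IGF1R is the tyrosine kinase receptor through which IGF1 acts. It was at 91.4, 106.6 and 113 FPKM in controls 1, 2 and 3, at 18.2, 18.3 and 19.4 in H/R and at 5.75, 6.43 and 5.97 in GA+H/R. In scaled FPKM the group means were 56.5 ± 8.99, 27.8 ± 0.962 and 14.3 ± 0.780 (SD, n = 3), and the 3 groups did not overlap. IGF1R fell by 0.98 ± 0.12 (log2) in H/R (SE, limma adjusted p = 1.12e-04) and again with gallic acid, with a change of -0.91 ± 0.12 against H/R (adjusted p = 5.78e-04). As deposited, these changes were -2.41 and -1.48. From control to GA+H/R the change was -1.90 ± 0.12 (adjusted p = 9.96e-07), or 3.73-fold.

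IGF2R followed nearly the same course. Its FPKM was 79.9, 103 and 113 in controls 1, 2 and 3, between 16.6 and 17.7 in H/R and between 5.28 and 5.65 in GA+H/R. Scaled means were 53.8 ± 11.9, 25.5 ± 0.817 and 13.1 ± 0.509 (SD, n = 3), again without overlap between groups. Its log2 change was -1.02 ± 0.15 in H/R (SE, limma adjusted p = 3.69e-04) and -0.92 ± 0.15 in GA+H/R against H/R (adjusted p = 0.00184), with -2.44 and -1.48 on the deposited scale. Without control 1 the changes from control to H/R were -1.10 for IGF1R and -1.19 for IGF2R.

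The receptor falls ran alongside those of other long mRNAs. IGF1R and IGF2R are both encoded by long mRNAs. Of 18 long housekeeping transcripts tested (20 listed), 15 fell and 0 rose in H/R against control (28.4% and 29.2% of loci did), with a median of -0.62. In GA+H/R against H/R 10 fell and 0 rose (15.2% and 18.7% of loci did), with a median of -0.31. Of 15 short housekeeping transcripts tested (20 listed), 14 rose and 0 fell in H/R, with a median of 1.05, and 9 rose and 0 fell with gallic acid, with a median of 0.44. As deposited, the long list had medians of -2.02 and -0.97 and the short list -0.00068 and -0.12 in those comparisons. All 18 of the long list fell in both, where 86% and 64.3% of loci did. Of 14 short ones tested on that scale 5 rose and 3 fell in H/R, where 4.18% and 86% of loci did. With gallic acid 0 rose and 0 fell, where 1.69% and 64.3% of loci did. The part of transcript length in the changes of IGF1R, IGF2R and the binding proteins was not tested.

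IGFBP2 and IGFBP5 showed the greatest spread among controls. IGFBP2, a binding protein made in many cell types, was at 396.7 FPKM in control 1 against 1078 and 1007 in controls 2 and 3. It was between 104 and 109.8 FPKM in H/R and between 64.7 and 75.6 in GA+H/R. Its scaled mean was 456 ± 220.2 for control, 159.6 ± 3.80 for H/R and 169 ± 14.4 for GA+H/R (SD, n = 3), so H/R lay below all controls while GA+H/R overlapped H/R. IGFBP2 fell by 1.35 ± 0.35 (log2) in H/R (SE, limma adjusted p = 0.00923), and its change was -1.85 without control 1 (adjusted p = 1.58e-07).

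For IGFBP2 no further step was detected with gallic acid. The change from H/R was 0.08 ± 0.35 (limma adjusted p = 0.877) and -0.58 as deposited (adjusted p = 0.134). Without control 1 it was 0.08 with an adjusted p of 0.353.

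IGFBP5, which also binds extracellular matrix, was at 619.7, 1633 and 1934.5 FPKM in controls 1, 2 and 3. It was at 149.7, 141.7 and 144.9 FPKM in H/R and at 68.4, 64.8 and 63.7 in GA+H/R. The scaled means were 770.5 ± 406, 217 ± 6.27 and 155 ± 6.26 (SD, n = 3), and no 2 groups overlapped. In H/R IGFBP5 fell by 1.64 ± 0.38, a log2 change (SE, limma adjusted p = 0.00528), and its change was -2.18 without control 1 (adjusted p = 1.22e-07).

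Whether IGFBP5 passed the test with gallic acid depended on control 1. The change from H/R was -0.48 ± 0.38 with all libraries (limma adjusted p = 0.357) and -0.49 without control 1 (adjusted p = 8.24e-04), and with only the H/R and GA+H/R libraries in the fit it was -0.52 (adjusted p = 1.25e-04). As deposited, it was -1.14 (adjusted p = 0.0167). Against control, IGFBP5 in GA+H/R had the lowest value of the 8 genes, a log2 change of -2.12 ± 0.38 (adjusted p = 8.92e-04), or 4.35-fold.

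IGFBP2 and IGFBP5 lie next to each other on 1 chromosome in the RefSeq rabbit assembly mOryCun1.1, where 0 annotated genes start between them. Both were low in control 1, as were the fibroblast markers. The summed scaled FPKM of the 10 fibroblast markers with a row was 65574 in control 1, 106625 and 106339 in controls 2 and 3, between 43840 and 44043 in H/R and between 32870 and 33295.5 in GA+H/R. None of the 10 was at 0 in all libraries. Of 9 fibroblast markers tested, 7 fell and 1 rose from control to H/R, where 28.4% and 29.2% of loci did. With gallic acid 4 fell and 1 rose, where 15.2% and 18.7% of loci did. The part of fibroblast content in the levels of IGFBP2 and IGFBP5 was not tested.

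IGFBP4, a binding protein that restrains IGF action until it is cut by the protease PAPPA, had the smallest change of the 8 in H/R. It was at 36.5, 35.03 and 35.2 FPKM in controls 1, 2 and 3, at 9.35, 11.4 and 10.1 in H/R and at 8.17, 7.96 and 9.36 in GA+H/R. After scaling the means were 19.3 ± 0.659 for control, 15.3 ± 1.56 for H/R and 20.1 ± 1.79 for GA+H/R (SD, n = 3). H/R lay below both other groups, which overlapped. IGFBP4 fell by 0.32 ± 0.10 (log2) in H/R (SE, limma adjusted p = 0.0237), and without control 1 the change was -0.32 (adjusted p = 0.0341).

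With gallic acid IGFBP4 rose by 0.37 ± 0.10 against H/R (limma adjusted p = 0.0208), to within 0.05 ± 0.10 of control (adjusted p = 0.654). On the deposited scale it fell by 1.70 in H/R and then changed by -0.25 with gallic acid (adjusted p = 0.0542), so the direction of this step depends on the scale. The fall in H/R missed the threshold without control 2, control 3, H/R 1 or H/R 3 (adjusted p between 0.0637 and 0.0830). The rise with gallic acid missed it without H/R 1, H/R 3 or GA+H/R 3 (adjusted p between 0.0612 and 0.0739), at equal totals (0.0815) and with only the 2 groups in the fit (0.0501).

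IGFBP6, which binds IGF2 in preference to IGF1, went the other way. Its FPKM was 13.1, 7.26 and 6.14 in controls 1, 2 and 3, then 5.48, 4.53 and 5.56 in H/R and 6.43, 6.58 and 6.94 in GA+H/R. In scaled FPKM the means were 4.71 ± 1.70, 7.73 ± 0.856 and 15.7 ± 0.607 (SD, n = 3), and the 3 groups did not overlap, although H/R 2 at 6.75 lay close to control 1 at 6.66. IGFBP6 rose with gallic acid by 0.94 ± 0.19 on the log2 scale against H/R (SE, limma adjusted p = 0.00520). As deposited, this difference had the same sign, 0.31 (adjusted p = 0.238), and every GA+H/R library lay above every H/R library.

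In H/R against control IGFBP6 rose by 0.65 ± 0.19 (limma adjusted p = 0.0156), and by 0.87 without control 1 (adjusted p = 2.58e-04), but it fell by 0.61 on the deposited scale. This rise missed the threshold without control 2, H/R 1 or H/R 3 (adjusted p between 0.0505 and 0.0518). From control to GA+H/R the scaled change was 1.59 ± 0.19 (adjusted p = 6.30e-05), against -0.30 on the deposited scale (adjusted p = 0.216).

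IGFBP7, a secreted protein related to the other binding proteins that binds IGFs weakly, was higher after scaling in H/R. It was at 9.998, 5.45 and 5.06 FPKM in controls 1, 2 and 3, at 3.60, 3.65 and 3.84 in H/R and between 2.49 and 2.64 in GA+H/R. Scaled means were 3.65 ± 1.24, 5.51 ± 0.183 and 6.05 ± 0.165 (SD, n = 3), with H/R above all controls and GA+H/R above H/R. IGFBP7 rose in H/R by 0.52 ± 0.16 on the log2 scale (SE, limma adjusted p = 0.0240) and was at 0.12 ± 0.16 in GA+H/R against H/R (adjusted p = 0.618). Its deposited values gave a fall of 0.69 in H/R. The scaled rise missed the threshold without control 2, control 3 or any 1 of the H/R libraries (adjusted p between 0.0542 and 0.0780), and without control 1 it was 0.72 (adjusted p = 2.24e-04).

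**Figure D2:**
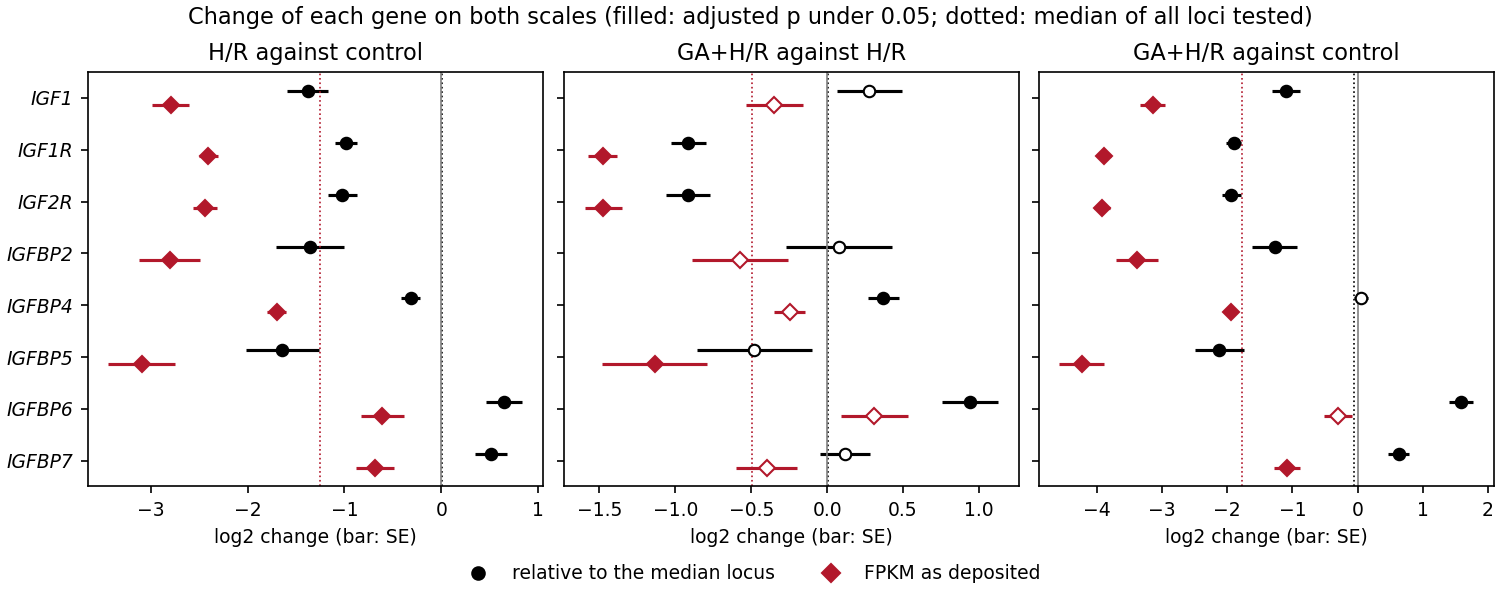
Log2 change (horizontal axis) of the 8 genes in the 3 comparisons, relative to the median locus (black circles) and on the deposited FPKM scale (red diamonds), with bars for the SE, filled symbols for an adjusted p under 0.05 and dotted lines at the median of all loci tested. In H/R against control, 6 genes lie to the left of the black median line and IGFBP6 and IGFBP7 to the right, while on the deposited scale all 8 lie below 0.

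Seen from control, GA+H/R cells had lower IGF1, IGF1R, IGF2R, IGFBP2 and IGFBP5 and higher IGFBP6 and IGFBP7. That is 7 of 8 called, where 69.2% of loci were, with 5 of 8 called lower, where 35.5% of loci were, and 2 of 8 called higher, where 33.7% were. IGFBP4 did not pass. As deposited, 7 fell, 0 rose and IGFBP6 did not pass, where 94.2% of loci were called, 90.1% lower and 4.1% higher. This comparison shares its controls with the first and its GA+H/R libraries with the second, so it is not separate evidence. The authors' deposited table marks all 8 genes as significant in a single test across the 3 groups, with the highest q, 0.0242, for IGFBP6 and the next, 2.45e-08, for IGFBP7. The share of all loci that it marks was not computed, so this count has no background to be set against.

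Ratios of 2 genes within a library do not change when a whole library is rescaled. A shift that differs between loci, such as that between the long and short housekeeping transcripts, stays in them. The part of transcript length in these ratios was not tested. The pairs below were chosen after their values were seen, and are given without a test. The log2 ratio of IGF1R to IGF2R averaged 0.08 ± 0.10 for control, 0.12 ± 0.02 for H/R and 0.13 ± 0.09 for GA+H/R (SD, n = 3), so the group means lay within the spread of the controls. IGF1 to IGF1R was at -0.29, 0.28 and 0.13 in controls 1, 2 and 3, between -0.43 and -0.33 in H/R and between 0.73 and 1.03 in GA+H/R. The GA+H/R libraries were thus the highest in ligand relative to receptor message, 2.38-fold above H/R by the group means. IGF1R to INSR, the insulin receptor gene, averaged -2.49 ± 0.26, -2.66 ± 0.02 and -2.95 ± 0.10.

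Among binding proteins, IGFBP6 and IGFBP2 were higher relative to IGFBP5 in GA+H/R than in control. The log2 ratio of IGFBP6 to IGFBP5 was -5.57 in control 1, -7.81 and -8.30 in controls 2 and 3, between -4.97 and -4.70 in H/R and between -3.41 and -3.20 in GA+H/R. Its group mean was 2.85-fold higher in GA+H/R than in H/R. The difference between H/R and control, 2.41 with all controls, was 3.24 without control 1. The ratio of IGFBP2 to IGFBP5 averaged -0.73 ± 0.19, -0.44 ± 0.08 and 0.12 ± 0.09 (SD, n = 3), and was higher in each GA+H/R library than in any other library. IGFBP6 to IGF1R averaged -3.63 ± 0.73, -1.85 ± 0.15 and 0.14 ± 0.09, with no overlap between groups.

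**Figure D3:**
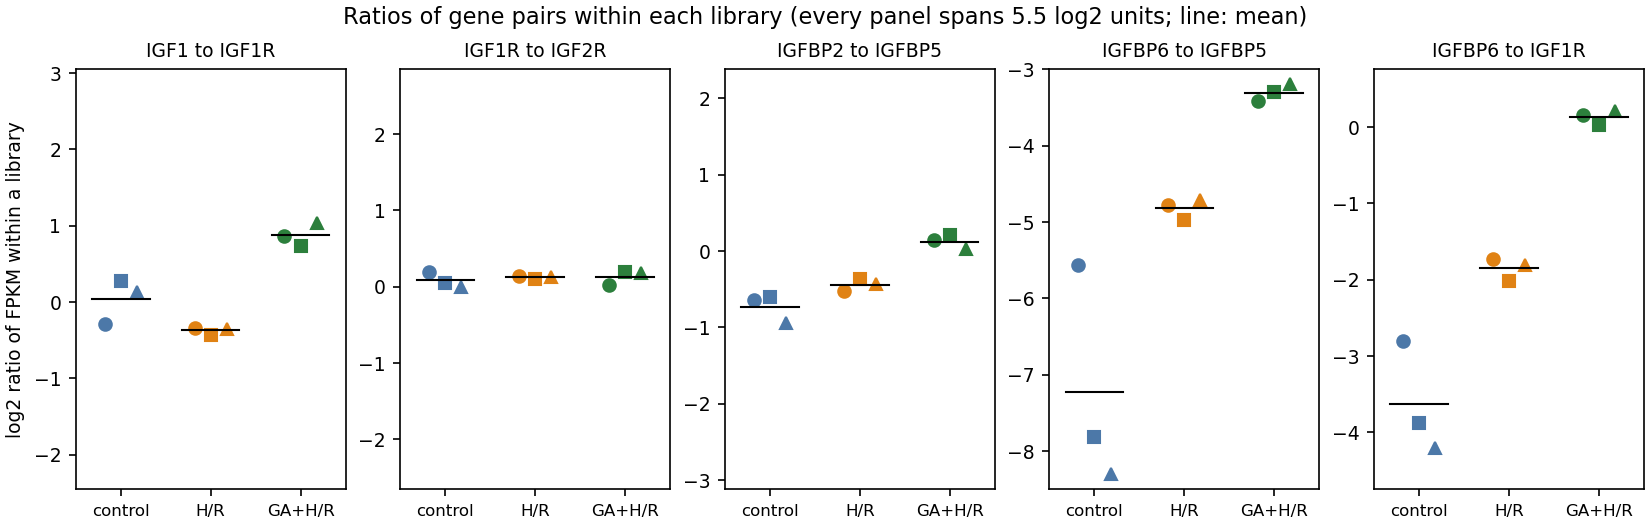
Log2 ratio of FPKM of 2 genes within each library, for 5 pairs, with the same span on every vertical axis, symbols for libraries 1, 2 and 3 and a line at the group mean. The IGF1R to IGF2R ratio stays between 0.0022 and 0.19 in all 9 libraries, whereas IGFBP6 to IGFBP5 and IGFBP6 to IGF1R climb from control to GA+H/R.

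Similarity to other loci was measured as the root mean square difference over the 9 libraries, on log2(scaled FPKM + 1) centred per locus, among 4519 or 4520 named loci with a range of at least 1. For IGF1R the nearest were LRP1 (0.05), IGF2R (0.06) and NEU3 (0.07), and for IGF2R they were LRP1 (0.05), APP (0.06) and IGF1R (0.06). IGF1 was nearest to SPPL2A (0.13), SLC35A3 (0.14) and PTGS2 (0.16), IGFBP2 to CLSTN2 (0.14), TNMD (0.14) and DCN (0.14), and IGFBP5 to ADAM12 (0.10), PCSK5 (0.13) and VCAN (0.13). IGFBP6 was nearest to RPUSD3 (0.11), CISH (0.12) and G0S2 (0.14), IGFBP7 to YARS (0.09), GEM (0.11) and SMOX (0.11), and IGFBP4 to TSNAX (0.19), MAP7D3 (0.19) and BCDIN3D (0.20). The receptors were thus closer to each other than any other pair of the 8, the next being IGF1 and IGFBP2 at 0.23.

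Proteases that cut IGF binding proteins, with their inhibitors, numbered 10, of which 9 were tested. Between control and H/R 0 rose and 4 fell, where 29.2% and 28.4% of loci did, with a median of -0.41. Without control 1, 1 rose and 5 fell (3271 and 3020 of 10592 loci did), and as deposited all 9 fell, where 86% of loci did. PAPPA, the metalloproteinase that cuts IGFBP4 and IGFBP5, went from 815.7 ± 82.8 to 437.6 ± 15.03 scaled FPKM (SD, n = 3) and fell by 0.89 ± 0.07 on the log2 scale (SE, limma adjusted p = 1.16e-05). HTRA1, a serine protease that cuts IGFBP5, fell by 0.52 ± 0.06. CTSD, another protease of the list, was at 0.16 ± 0.10 (limma adjusted p = 0.228). ADAM9 and ADAM12, metalloproteinases related to each other, fell too, with log2 changes of -1.04 ± 0.09 and -1.56 ± 0.34. STC1, a stanniocalcin that inhibits PAPPA, was at -0.41 (limma adjusted p = 0.381) and at -0.94 without control 1 (adjusted p = 1.83e-04).

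With gallic acid 0 of these 9 rose and 4 fell (PAPPA2, ADAM9, HTRA1 and PAPPA), where 18.7% and 15.2% of loci did, with a median of -0.27. Without control 1, 1 rose and 6 fell (2414 and 2142 of 10592 loci did). As deposited, 0 rose and 7 fell, where 1.69% and 64.3% of loci did. PAPPA2, a relative of PAPPA, was at -1.27 ± 0.36 (limma adjusted p = 0.0256), and ADAM9 at -0.27 ± 0.09 (adjusted p = 0.0444). HTRA1 was at -0.26 ± 0.06 (limma adjusted p = 0.0136, which rose to 0.0556 without H/R 2 and 0.0511 without H/R 3) and PAPPA at -0.22 ± 0.07 (adjusted p = 0.0474). The calls of PAPPA, ADAM9 and PAPPA2 were lost in 11, 10 and 7 of 18 alternatives, among them the removal of any 1 H/R or GA+H/R library. CTSD went the other way, at 0.27 ± 0.10 with gallic acid (limma adjusted p = 0.0705, and 0.00414 without control 1). HTRA1 and PAPPA stood lower in GA+H/R than in control, by log2 changes of -0.79 and -1.11, and CTSD stood higher, by 0.43 (adjusted p = 0.00499).

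Of 17 genes of the insulin receptor and of signalling next to these receptors, 12 were tested. From control to H/R 3 rose and 5 fell, where 29.2% and 28.4% of loci did, with a median of -0.06. Without control 1, 4 rose and 5 fell (3271 and 3020 of 10592 loci did), and as deposited all 12 fell, where 86% of loci did. INSR, the insulin receptor, fell from 314 ± 9.75 to 175 ± 8.64 scaled FPKM (SD, n = 3), a log2 change of -0.84 ± 0.06 (SE, limma adjusted p = 2.94e-06), and fell again with gallic acid, to 110.2 ± 1.32, a change of -0.67 ± 0.06 (adjusted p = 5.61e-05). INSR was chosen for description as the close relative of IGF1R, after its values were seen. IRS1, the adaptor that both receptors phosphorylate, was at -0.75 ± 0.11 in H/R (adjusted p = 4.68e-04) and at 0.09 ± 0.11 with gallic acid (adjusted p = 0.548), against -0.55 there as deposited. SHC1, an adaptor to the RAS pathway, rose in H/R by 0.30 ± 0.07, against -1.16 for the deposited values and 0.0092 at equal totals (adjusted p = 0.945).

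RACK1, a scaffold of the small ribosomal subunit that also binds IGF1R, rose by 1.11 ± 0.04 in H/R (limma adjusted p = 3.46e-08), against -0.35 on the deposited scale. It rose by 0.89 ± 0.04 with gallic acid (adjusted p = 2.85e-06), and by 0.23 there on the deposited scale. PTPN11, also on this list, rose by 0.19 ± 0.07 in H/R (limma adjusted p = 0.0373) and by 0.23 ± 0.07 with gallic acid (adjusted p = 0.0254). MDM2 fell by 0.32 ± 0.09 in H/R (adjusted p = 0.0126) and was at 0.0074 ± 0.09 with gallic acid (adjusted p = 0.956). Over the 12 genes, 2 rose and 4 fell in GA+H/R against H/R, where 18.7% and 15.2% of loci did, with a median of 0.0099. As deposited, 1 rose and 10 fell, where 1.69% and 64.3% of loci did, with a median of -0.60.

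In the mannose 6-phosphate route IGF2R carries lysosomal enzymes. Of 10 genes listed, 6 were tested, and in H/R against control 5 fell (28.4% of loci were called lower) and 0 rose, with a median of -0.44. As deposited, all 6 fell, where 86% of loci did. Those that fell were SORT1, a sorting receptor, at -1.08 ± 0.12, GNPTAB, a subunit of the enzyme that starts the mannose 6-phosphate tag, at -0.99 ± 0.13, M6PR, the smaller mannose 6-phosphate receptor, at -0.51 ± 0.12, and the transport factors VPS35 and GGA2, at -0.36 ± 0.06 and -0.37 ± 0.08 (SE, limma adjusted p between 5.89e-05 and 0.00643). With gallic acid 2 fell (15.2% of loci were called lower) and 0 rose, with a median of -0.17. They were SORT1, at -0.63 ± 0.12 (limma adjusted p = 0.00358), and GGA2, at -0.24 ± 0.08 (adjusted p = 0.0469, lost in 10 of 18 alternatives). As deposited, all 6 fell, where 64.3% of loci did, with a median of -0.82. M6PR was at -0.11 ± 0.12 in the gallic acid comparison (adjusted p = 0.522), where IGF2R fell by 0.92.

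The growth hormone axis, which drives IGF1 transcription in liver, had 5 of 6 genes tested. From control to H/R 2 rose and 2 fell, where 29.2% and 28.4% of loci did, with a median of -0.05. As deposited, 0 rose and 5 fell, where 4.18% and 86% of loci did, with a median of -1.48. GHR, the growth hormone receptor, fell by 0.64 ± 0.16 (SE, limma adjusted p = 0.00786) and its kinase JAK2 fell by 0.61 ± 0.14 (adjusted p = 0.00476), while the feedback inhibitor SOCS3 rose by 0.52 ± 0.15 (adjusted p = 0.0132), against -0.85 for the deposited values and 0.25 at equal totals (adjusted p = 0.267). With gallic acid 1 rose and 1 fell, where 18.7% and 15.2% of loci did, with a median of 0.20. As deposited, 1 rose and 3 fell, where 1.69% and 64.3% of loci did, with a median of -0.45. The gene that rose was CISH, another feedback inhibitor, at 1.10 ± 0.15 (limma adjusted p = 8.48e-04). There STAT5B, the transcription factor downstream of JAK2, fell by 0.64 ± 0.09 (adjusted p = 6.91e-04). IGF2 mRNA-binding proteins numbered 3, of which 2 were tested and 0 passed limma's adjusted threshold in any of the 3 comparisons. Before adjustment, IGF2BP2 alone was under 0.05, and only from control to GA+H/R. At equal totals both passed in H/R against control, IGF2BP2 at -0.44 (limma adjusted p = 0.0147) and IGF2BP3 at -0.63 (adjusted p = 0.0176), as they did on the deposited scale (-1.55 and -1.50). In scaled FPKM IGF2BP2 was there at -0.17 (adjusted p = 0.268) and IGF2BP3 at -0.43 (adjusted p = 0.121), the latter at -0.67 without control 1 (adjusted p = 0.00215). Of 4 other IGF binders listed, 1 had a row and 0 passed the filter.

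**Figure D4:**
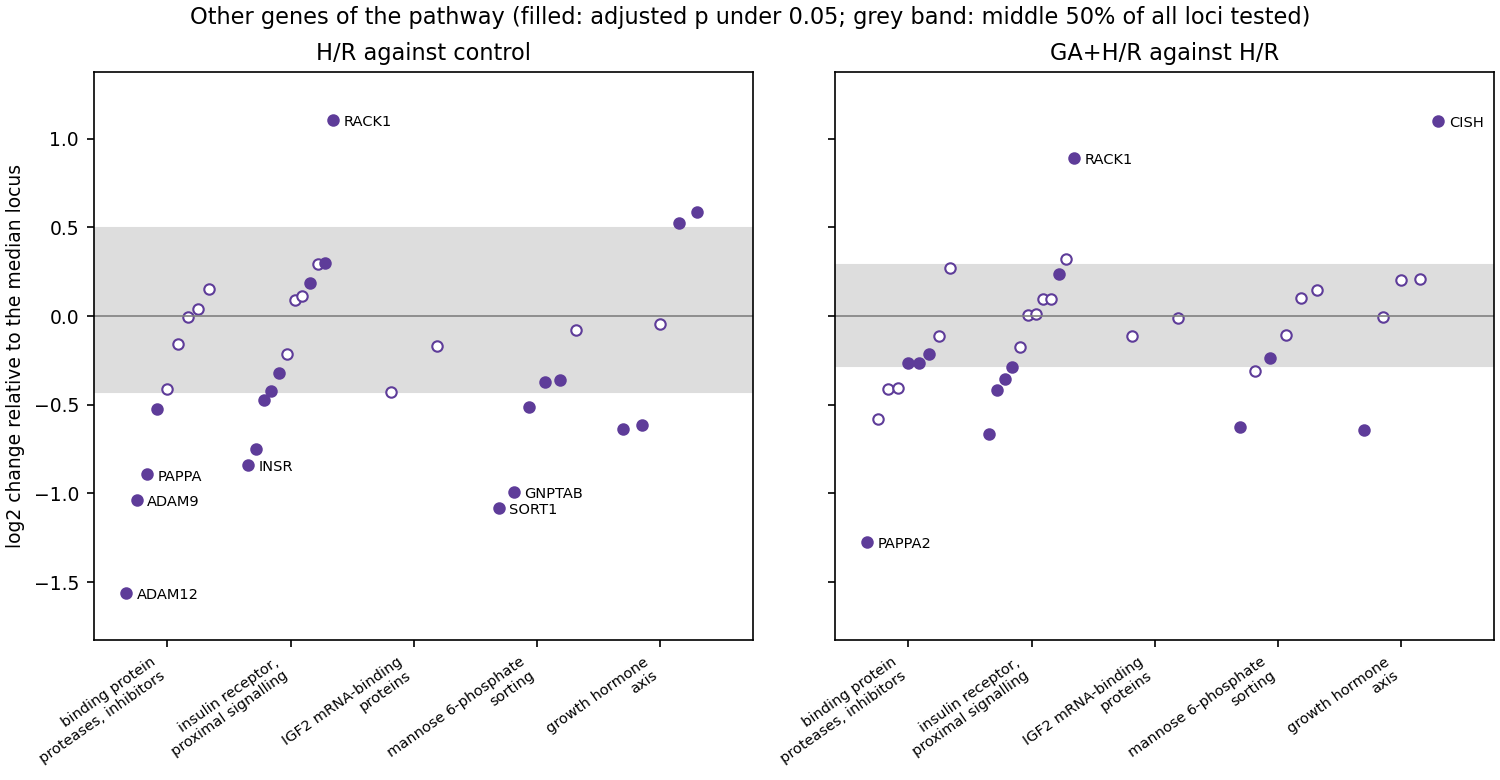
Log2 change relative to the median locus (vertical axis) of each tested gene in 5 lists of the wider pathway, in H/R against control and GA+H/R against H/R, with filled points for an adjusted p under 0.05, names for changes beyond 0.8, and a grey band for the middle 50% of all loci tested. INSR, PAPPA, ADAM9 and SORT1 lie below the band in H/R and RACK1 lies above it in both comparisons.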

How the data were processed

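Total RNA was made into libraries by a Vazyme TruePrep kit, per the labels. The authors deposited a single table of FPKM, per the file headers, for 9 libraries, together with a p-value and q-value per locus for 1 test across the 3 groups, which were copied and not used in any fit. Only GRCm38 and mm10, both mouse builds, stand in the submitters' processing notes. The transcripts are rabbit, and coordinates on those builds were therefore left out. The placing of IGFBP2 next to IGFBP5 comes from the RefSeq rabbit assembly mOryCun1.1. Aligner and counting tool are not given in the sources used here.

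Each library was scaled to its median locus (over the 8448 with FPKM of at least 1 everywhere). Loci reaching a scaled FPKM of 1 in 3 libraries were tested. A limma 3.58.1 model (R 4.3.3, eBayes with trend and robust settings) was run over log2(scaled FPKM + 1) for the 9 libraries together. A fold on this scale understates the change of low genes. Genes, lists and scale were chosen with earlier results of these data known. Named genes were the 10 members, up to 4 of the most expressed tested genes of each related list, and the 3 loci nearest to each member. STC1, IRS1, INSR, ADAM12, PAPPA2, GNPTAB and CISH were added after their values were seen. Of the marker lists, endothelial, epithelial, smooth muscle and adipocyte genes were also counted: 1, 0, 4 and 2 were tested. With gallic acid, compared with H/R, 1, 0, 0 and 0 rose and 0, 0, 2 and 0 fell, where 18.7% and 15.2% of loci did. Alternatives were the deposited scale, equal totals, quantile normalization, an added value of 0.1, 2 other filters, the replicate block, a plainer variance model, fits of 2 groups and leaving out each library.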

Additional observations from a re-analysis of the deposited data

How the results depend on the processing

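IGF1, IGF1R, IGF2R, IGFBP2 and IGFBP5 kept their direction and call in H/R against control in all 18 alternatives, as did IGF1R and IGF2R in GA+H/R against H/R. On the deposited scale 9922 loci were called in H/R against control (6315 relative to the median locus) and 7255 in GA+H/R against H/R (3712). Of the changes given above, that scale turned the sign, in H/R against control, of IGFBP6 (-0.61), IGFBP7 (-0.69), RACK1 (-0.35), SHC1 (-1.16) and SOCS3 (-0.85), in the gallic acid comparison with H/R of IGF1 (-0.35), IGFBP2 (-0.58), IGFBP4 (-0.25), IGFBP7 (-0.40) and IRS1 (-0.55), and for GA+H/R against control of IGFBP4 (-1.95), IGFBP6 (-0.30) and IGFBP7 (-1.08). At equal totals IGFBP2 was at -0.0028 with gallic acid against H/R, and IGFBP4 at -0.30 for GA+H/R against control. There IGFBP4 was at -0.064 after quantile normalization, and between -0.012 and 0.10 when 1 library was left out, below 0 only without GA+H/R 3. At equal totals and after quantile normalization the rises of IGFBP6 and IGFBP7 in H/R did not pass (adjusted p = 0.139 and 0.249, and 0.0551 and 0.0874), nor at equal totals did that of IGFBP7 from control to GA+H/R (0.32, adjusted p = 0.168). Causes other than the change of scale were not tested. Leaving out 1 library gave 5 to 8 genes of the 8 called in H/R against control, 3 to 6 with gallic acid against H/R and 7 for GA+H/R against control. Over all loci it gave 5424 to 6396, 2709 to 4556 and 6803 to 7431.

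Same-numbered libraries of different groups did not deviate together (r from -0.02 to 0.03 over 9 pairs), so the numbers were not taken as pairs. With the replicate block 6142, 3385 and 7441 loci were called and 8, 4 and 7 of the 8 genes, with no call of these 8 changed. The files hold no counts, so what depth limits could not be computed.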
